A study of Mus musculus with 10 samples.

Results

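The neuregulins and the ErbB receptors were followed as 7 genes: the ligand genes Nrg1, Nrg2 and Nrg3, and the receptor genes Egfr, Erbb2, Erbb3 and Erbb4. They were taken by gene symbol, and they were 7 of the 30406 genes listed in all 10 matrices. Neuregulins are growth factors that carry an EGF-like domain and are made mostly as membrane-anchored precursors, which proteases cut. ErbB receptors are tyrosine kinases that signal as dimers. ErbB3 and ErbB4 bind neuregulins, ErbB2 has no known ligand of its own and serves as a partner, the kinase of ErbB3 is weak, and the EGF receptor (Egfr) binds EGF, TGF-alpha and HB-EGF. In the cortex ErbB4 is best known from GABAergic interneurons, and ErbB3 is known from cells of the oligodendrocyte lineage.

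The cells came from the medial prefrontal cortex, profiled by single-cell RNA-seq on the 10x Genomics droplet platform, of male mice of the inbred wild-type strain C57BL/6N, over 2 months of age and with no transgene or drug named in the labels. Rank 1, the dominant position, and rank 4, the subordinate one, each had 5 libraries, and ranks came from tube tests, which score the animal that pushes its opponent out of a narrow tube as the winner. Tissue was taken 1 day after the last test and dissociated with papain. Each library pooled 2 to 3 mice, so the library was the replicate and the spread between single mice was not measured.

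The matrices held 64937 cell barcodes, of which 45864 were kept as cells. Libraries held 4442750 to 29278466 unique molecular identifiers (UMIs, counted RNA molecules), 1445 to 12592 kept cells, and a median of 1327.5 to 2674.5 UMIs per kept cell. Pairs of libraries shared 0 to 104 cell barcodes, at most 1.70% of the smaller library. Cell types were rebuilt by clustering on genes other than the 7 members and their pathway genes and were named from marker lists. In all 13 named classes the summed level of the class's own marker list was highest in that class, and no marker of the list was at 0 there. The same lists gave the names, so this is no independent check. The file headers name software version 3.1.0 for replicates 1 to 3 of both ranks (6 libraries) and 4.0.0 for replicates 4 and 5 (4 libraries), and this split moved with the level of most members, as given with the values below. Levels are in CPM, the usual depth-scaled unit, in which the UMIs of a gene are divided by all UMIs of that library and cell type and scaled to a common total, as mean ± SD over libraries with at least 20 cells of the type. Because droplet counts per gene also depend on transcript length and capture, levels are compared between cell types and not between genes.

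In the kept cells, Nrg1 had 1856 UMIs (37 to 430 per library), Nrg2 had 1516 (14 to 413) and Nrg3 had 3808 (48 to 1077). Among the receptors, Egfr had 1766 UMIs (46 to 327), Erbb2 had 193 (6 to 36), Erbb3 had 804 (9 to 215) and Erbb4 had 3924 (29 to 1171). Every member was thus counted in every library, but Erbb2 was so sparse that many of its levels rest on a few molecules. Cells outside the named types, among them neurons that matched no subclass, were 15.9% of a library's kept cells on average and held 23.5% of its Nrg1, 18.7% of its Nrg2, 23.5% of its Nrg3 and 12.53% of its Erbb4 UMIs, and levels by subclass leave these out. On the GRCm38 build the loci were Nrg1 at chr8:31814551-32884029, Nrg3 at chr14:38368952-39473088 and Erbb4 at chr1:68032186-69108059, all on the minus strand, and Egfr at chr11:16752203-16918158 on the plus strand. The other loci were Nrg2 at chr18:36017652-36197380 (minus), Erbb2 at chr11:98412470-98437716 (plus) and Erbb3 at chr10:128567523-128589652 (minus). The antisense gene Egfros lies within Egfr on the opposite strand without touching an exon of it and had 126 UMIs. Mien1 (chr11:98437708-98438991) overlaps only the last bases of Erbb2, up to 98437716, on the opposite strand. It touches an exon of Erbb2 there and had 12752 UMIs, against 193 of Erbb2. Whether the authors' counting used strand is not given in the sources used here, so reads from the shared stretches could have been exchanged, which was not tested.

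**Figure D1:**
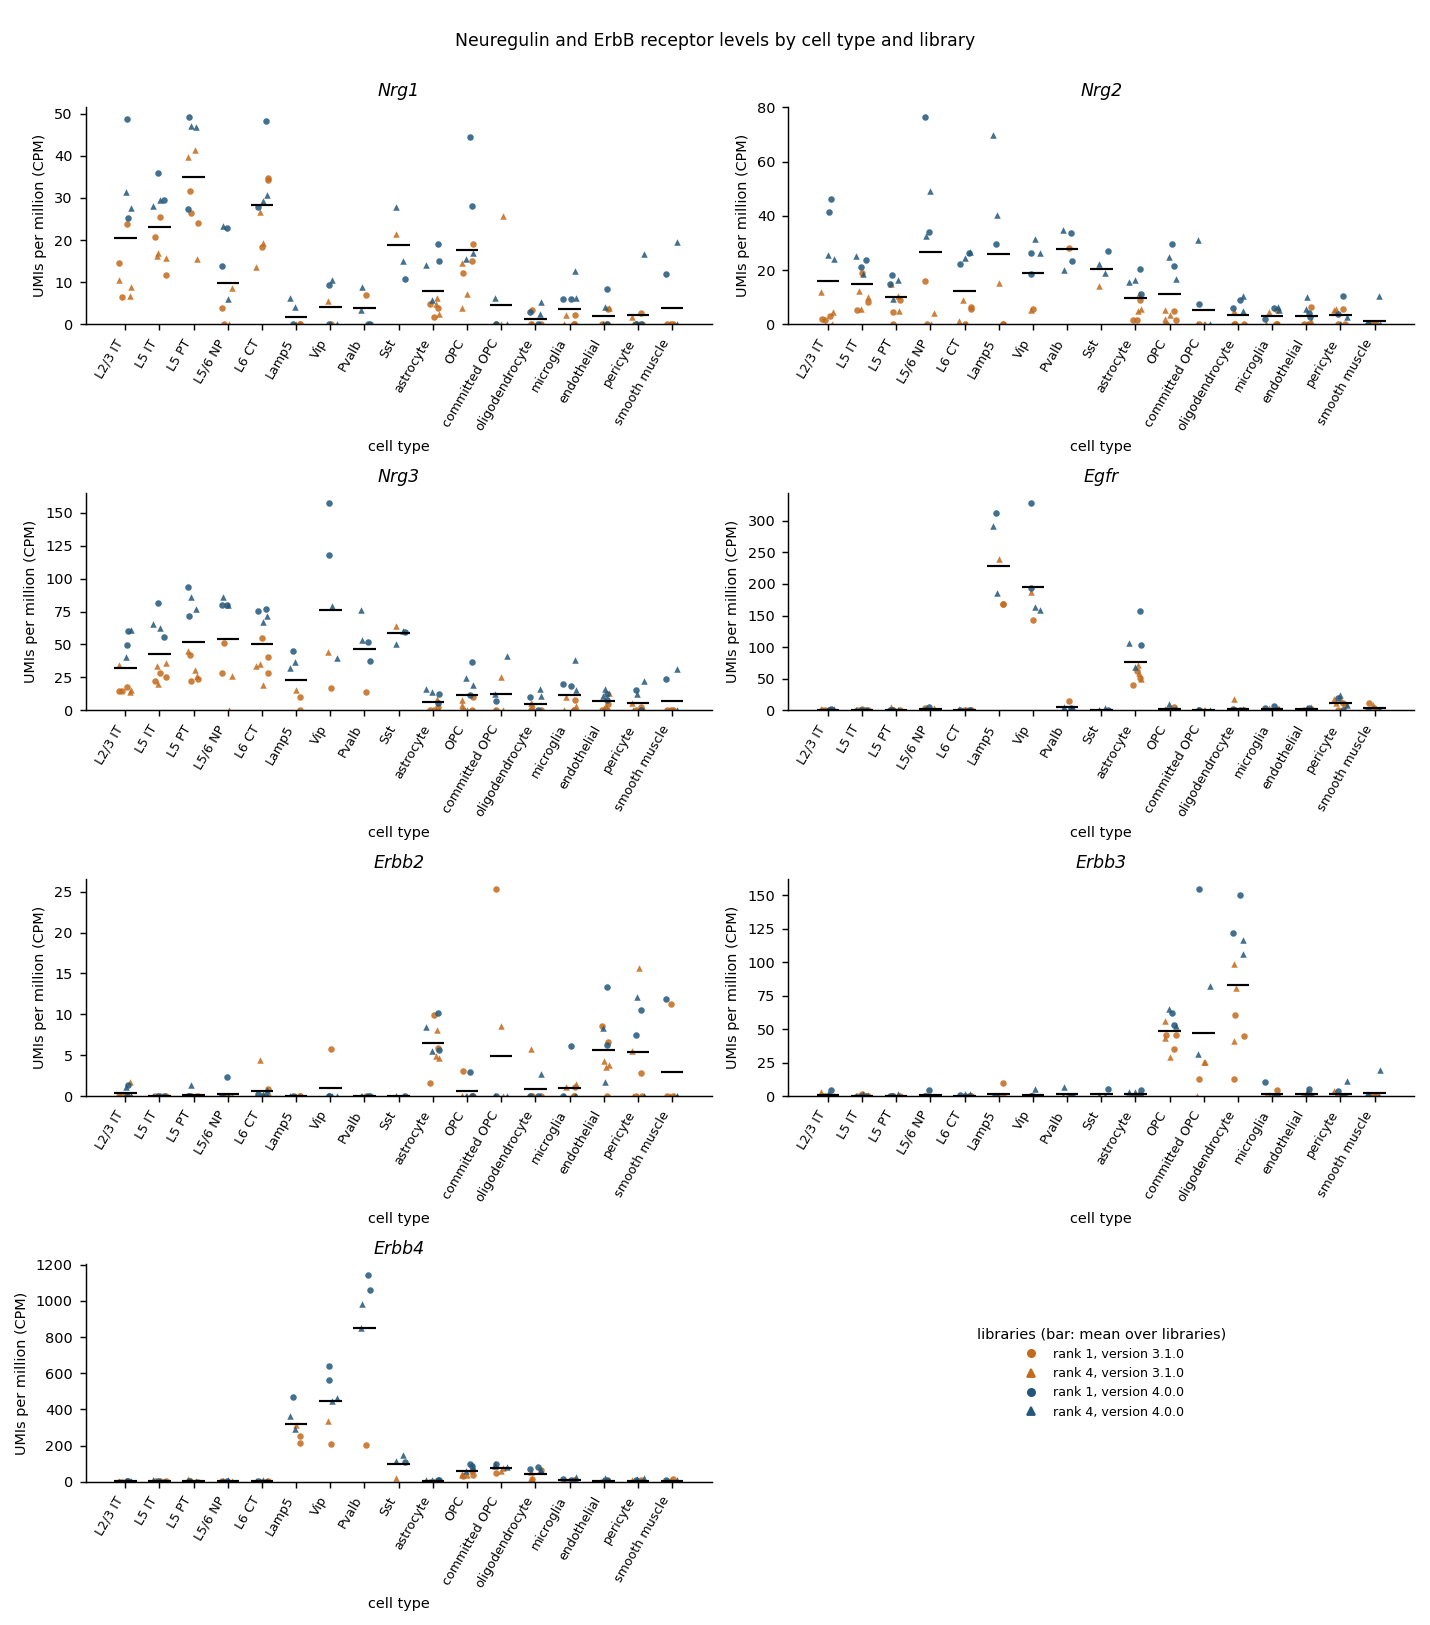
Level of each member in CPM (vertical axes from 0) by cell type: points are libraries with at least 20 cells of the type, marked by rank (shape) and header version (colour), and bars are means over libraries. The receptors stand in few types (Erbb4 in Pvalb, Vip and Lamp5 interneurons, Egfr in Lamp5 and Vip interneurons and astrocytes, Erbb3 in the oligodendrocyte lineage), while the 3 ligands stand mainly in neurons.

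Nrg1 and Nrg3 were lower in astrocytes than in excitatory neurons. For Nrg2 the estimate was also negative but did not pass, and whether the ligands differ in this contrast was not tested. Astrocytes were 21.2% of a library's cells and held 16 ± 11.8% of its Nrg2 UMIs (n = 10). Nrg1, the ligand best known from axons and synapses, was lower in inhibitory than in excitatory neurons, and Nrg3, a mostly neural neuregulin that binds ErbB4, was slightly lower. Nrg2, which also binds ErbB3 and ErbB4, did not pass the test between these classes. Erbb2 and Erbb3 were below the filter on low counts. Against excitatory neurons, 4 of the 5 other members passed in inhibitory neurons (edgeR's quasi-likelihood test with library as a block, adjusted over all genes), where 46.9% of all genes tested passed, so this count is no result about the members.

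Nrg1 in excitatory neurons stood at 27.0, 13.6, 17.1, 34.3 and 29.2 CPM in replicates 1 to 5 of rank 1, and at 17.4, 15.3, 12.3, 30.1 and 28.4 CPM in those of rank 4. The 4 libraries of header version 4.0.0 were the highest and the ranks overlapped. In inhibitory neurons the lowest, median and highest library were at 0, 10.4 and 18.4 CPM. The difference of inhibitory minus excitatory neurons was −1.27 on the log2 scale (SE 0.16, adjusted p = 5.9e-08 by edgeR), and Nrg1 was lower in 10 of 10 libraries.

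Among the excitatory subclasses, Nrg1 was highest in layer 5 pyramidal-tract neurons (L5 PT), the deep-layer cells that project below the cortex, at 34.9 ± 11.5 CPM (n = 10). It was 28.3 ± 9.89 CPM in layer 6 corticothalamic neurons (L6 CT), 23.0 ± 7.83 in layer 5 intratelencephalic neurons (L5 IT) and 20.4 ± 13.5 in L2/3 IT neurons (n = 10 each). Near-projecting neurons of the deep layers (L5/6 NP) were lowest, at 9.85 ± 9.33 CPM (n = 8). The pairwise tests between subclasses, which were added after these levels had been seen, put L5/6 NP below all of the other 4: by edgeR the log2 difference of L5 PT minus L5/6 NP was 1.46 (SE 0.29, adjusted p = 9.8e-06), and of L5/6 NP minus L6 CT −1.16 (SE 0.27, adjusted p = 0.00012). L5 PT was above L2/3 IT, with a log2 difference of L2/3 IT minus L5 PT of −0.60 (SE 0.19, adjusted p = 0.0093), and above L5 IT, but L5 PT and L6 CT did not pass (0.30, SE 0.15, adjusted p = 0.126 by edgeR).

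In L5 PT neurons Nrg1 was at 31.7, 26.5, 24.1, 49.1 and 27.5 CPM in rank 1 and at 39.8, 41.3, 15.4, 47.1 and 46.9 CPM in rank 4. The ranks overlapped, with rank 4 replicate 3 lowest of all, at 3 UMIs. Outside excitatory neurons, Nrg1 was found in Sst interneurons, at 18.8 ± 7.47 CPM (n = 4), and in oligodendrocyte precursors (OPCs), the dividing cells that give rise to oligodendrocytes, at 17.7 ± 11.5 CPM (n = 10). Lamp5, Pvalb and Vip interneurons held 1.73 ± 2.78 (n = 6), 3.88 ± 4.04 (n = 5) and 4.22 ± 4.91 CPM (n = 6), near the 3.56 ± 4.17 CPM (n = 10) of microglia, which stand here for cells that should lack neuronal transcripts.

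Nrg1 in OPCs was at 19.0, 12.2, 15.1, 44.6 and 28.2 CPM in rank 1, and at 14.5, 7.32, 3.97, 15.4 and 16.8 CPM in rank 4. The highest values were in rank 1 replicates 4 and 5, and the ranks overlapped. Within pairs of the same replicate number rank 1 was the higher in 5 of 5, and with the replicate number as a block the log2 difference was 0.82 (SE 0.34, unadjusted p = 0.0197 and adjusted p = 0.461 by edgeR), which did not pass. Oligodendrocytes of the same libraries held 1.42 ± 1.96 CPM (n = 10). With no filter on low counts, the log2 difference of OPCs minus oligodendrocytes was 2.59 for Nrg1 (adjusted p = 5.1e-08 by edgeR) and 1.19 for Nrg2 (adjusted p = 0.0185). Neither gene passed the filter on low counts of the main comparison, so these are values of the unfiltered alternative. The summed level of the 6 excitatory neuron markers was 342 CPM in OPCs against 426 CPM in microglia.

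Nrg2 was found in both inhibitory and excitatory subclasses. Pvalb interneurons held 28.0 ± 6.33 CPM (n = 5), L5/6 NP neurons 26.6 ± 27.0 (n = 8), Lamp5 interneurons 25.9 ± 26.9 (n = 6), Sst interneurons 20.6 ± 5.4 (n = 4) and Vip interneurons 19.0 ± 11.2 CPM (n = 6). The IT, CT and PT subclasses lay between 10.3 and 16.1 CPM, OPCs at 11.1 ± 11 and astrocytes at 9.76 ± 6.36 CPM (n = 10 each). The other non-neuronal types with at least 5 libraries held 1.30 to 7.85 CPM. Libraries of version 4.0.0 held more Nrg2 in excitatory and inhibitory neurons, and their share differs by type. These means thus do not give the order within a version. In version 4.0.0 alone, L5/6 NP held 32.6 to 76.3 and Lamp5 29.8 to 69.9 CPM. L2/3 IT neurons held 24.2 to 46.2 and Pvalb cells 19.97 to 34.6 CPM there, and these ranges overlapped.

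In excitatory neurons Nrg2 was at 9.78, 3.84, 5.22, 29.7 and 23.0 CPM in rank 1 and at 9.21, 6.02, 5.70, 22.6 and 22.1 CPM in rank 4. The 4 libraries of version 4.0.0 stood apart above the other 6 without overlap, whatever their rank. Inhibitory minus excitatory neurons differed by 0.16 on the log2 scale (SE 0.14, adjusted p = 0.374 by edgeR). Between subclasses, L5/6 NP was above L5 PT (log2 difference of L5 PT minus L5/6 NP −1.49, SE 0.30, adjusted p = 1.5e-05) and above L6 CT (0.80, SE 0.23, adjusted p = 0.0024 by edgeR). By library, L5/6 NP exceeded L5 PT in all 4 libraries of version 4.0.0, and L5 PT was the higher in 3 of the 4 of version 3.1.0 with both types. Those 4 (replicates 1 and 2 of rank 1, 1 and 3 of rank 4) held only 4, 0, 1 and 0 Nrg2 UMIs in L5/6 NP and 0, 1, 3 and 1 in L5 PT. Counts this low, which also enter the comparisons with L6 CT and L5 IT below, cannot show whether the versions differ, and this was not tested. L5/6 NP exceeded L6 CT in 4 of 4 libraries of version 4.0.0 and in 2 of 4 of version 3.1.0. The call for Nrg2 in L5/6 NP against L6 CT was lost without rank 1 replicate 4, at 0.64 (adjusted p = 0.0661). Nrg2 in L5 IT against L5/6 NP, at −0.75 (adjusted p = 0.0067 by edgeR), was lost with DESeq2 (adjusted p = 0.233), without rank 1 replicate 4 (−0.46, adjusted p = 0.198) and without rank 4 replicate 4 (−0.59, adjusted p = 0.0782). L5/6 NP was the higher there in 4 of 4 libraries of version 4.0.0 and L5 IT in 4 of 4 of version 3.1.0, where L5/6 NP held only the few UMIs given above. L5 PT held the lowest mean of the excitatory subclasses. It passed against all of the other 4 by edgeR, but Nrg2 in L2/3 IT against L5 PT (0.95, adjusted p = 0.00385) had an adjusted p of 0.203 with DESeq2 and 0.0822 without rank 1 replicate 5. Nrg2 in L5 IT against L5 PT (0.59, adjusted p = 0.037 by edgeR) was at 0.138 with DESeq2 and was lost without replicate 1, 2, 4 or 5 of rank 1 or replicate 4 or 5 of rank 4 (adjusted p from 0.052 to 0.123). Nrg2 in L5 PT against L6 CT (−0.62, adjusted p = 0.0313 by edgeR) was at 0.273 with DESeq2.

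Nrg3 had its highest levels in neuron subclasses. Vip interneurons held 75.9 ± 53.3 CPM (n = 6), Sst interneurons 58.4 ± 5.84 (n = 4), L5/6 NP 53.8 ± 32.6 (n = 8), L5 PT 51.9 ± 27.7, L6 CT 50.4 ± 21.4 and L5 IT 43.1 ± 21.6 CPM (n = 10 each). Pvalb interneurons held 46.6 ± 22.9 (n = 5), L2/3 IT neurons 32.2 ± 19.6 (n = 10) and Lamp5 interneurons 23.0 ± 17.2 CPM (n = 6). Types differ in their share of libraries of version 4.0.0, where Nrg3 was higher, so these means do not give the order within a version. In version 4.0.0 alone, Vip cells held 39.6 to 157 CPM, Sst 50.2 to 60.2, L5/6 NP 79.6 to 86.3, L5 PT 71.5 to 93.9 and L6 CT 67.1 to 77.0 CPM. Microglia were at 11.2 ± 12.1 CPM (n = 10), and the other non-neuronal types with at least 5 libraries held 4.76 to 18.3 CPM. Lamp5 cells had no Nrg3 UMI in rank 1 replicate 2, and in rank 4 replicate 4 they were at 31.8 CPM beside 37.8 CPM in microglia. A Nrg3 UMI was found in 8.74% of 286 Lamp5 cells at a median depth of 3356.5 UMIs and in 1.72% of 3615 microglia at 1275 UMIs. Thinned shares, here and below, leave out cells too shallow to be thinned, so they cover 278 of the Lamp5 cells and 2514 of the microglia. The exact expected share after thinning to 1000 UMIs, added after a single random draw had been seen, was 2.00% in Lamp5 cells and 0.838% in microglia. That draw had 0% of Lamp5 cells and 0.835% of microglia. In the other subclasses named above the expected share was 3.62% (L2/3 IT) to 7.07% (L5 PT).

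The values of Nrg3 in excitatory neurons were 25.2, 20.5, 20.9, 62.9 and 74.1 CPM in rank 1 and 31.4, 20.4, 23.2, 66.4 and 69.2 CPM in rank 4. In inhibitory neurons they were 17.5, 10.5, 21.5, 53.8 and 60.8 CPM in rank 1 and 37.1, 24.9, 10.5, 54.7 and 53.4 CPM in rank 4. In both classes the 4 libraries of version 4.0.0 lay above the other 6 with no overlap, and the ranks overlapped. Inhibitory minus excitatory neurons differed by −0.31 (SE 0.10, adjusted p = 0.0136 by edgeR). The difference was negative in 7 of 10 libraries, in all 4 of version 4.0.0 but in only 3 of the 6 of version 3.1.0.

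L2/3 IT neurons, which connect cortical areas, held less Nrg3 than the deep-layer subclasses. The log2 difference of L2/3 IT was −0.37 (SE 0.12, adjusted p = 0.0157) against L5 IT, −0.66 (SE 0.15, adjusted p = 0.00025) against L5 PT and −0.49 (SE 0.13, adjusted p = 0.0028 by edgeR) against L6 CT. L5 IT and L5 PT each exceeded L2/3 IT in 10 of 10 libraries, and L6 CT did so in 9 of 10. Nrg3 in L2/3 IT against L5/6 NP, at −0.50 (adjusted p = 0.0231 by edgeR), was lost with DESeq2 (adjusted p = 0.166), with no filter on low counts (adjusted p = 0.0887) and without replicate 2 or 4 of rank 1 or replicate 4 or 5 of rank 4 (−0.45 to −0.35, adjusted p from 0.0713 to 0.214). Nrg3 in L5 IT against L5 PT, at −0.28 (adjusted p = 0.0457 by edgeR), was lost with RLE factors (adjusted p = 0.0581), DESeq2 (adjusted p = 0.179) and no filter on low counts (adjusted p = 0.17), and without replicate 1, 4 or 5 of rank 1 or replicate 4 or 5 of rank 4 (adjusted p from 0.053 to 0.118). In interneurons, Nrg3 in Lamp5 against Vip differed by −1.25 (SE 0.41, adjusted p = 0.0239 by edgeR), a call that was lost with DESeq2 (adjusted p = 0.237) and without rank 4 replicate 1 (adjusted p = 0.0524).

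Over the 10 pairs of excitatory subclasses, 17 of 30 tests of the ligands passed (Nrg1 6 of 10, Nrg2 6 of 10, Nrg3 5 of 10), where 35.6% of all such gene and pair tests passed. Over the 6 pairs of interneuron subclasses, 10 of 17 member tests passed (Erbb4 5 of 6, Egfr 4 of 5, Nrg3 1 of 6), against 21.1% of all. No set test was made of either count.

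The receptors were each concentrated in a few cell types. Erbb4, the neuregulin receptor of interneurons, was highest in Pvalb cells, the fast-spiking interneurons, and Egfr in Lamp5 and Vip interneurons and in astrocytes. Erbb3 was almost confined to the oligodendrocyte lineage among the types measured, and Erbb2 was seen at low counts in astrocytes and vascular cells. Because Egfr and Erbb4 both stand out in Lamp5 and Vip interneurons, the 250 bases before the start of each of these genes are shown from RefSeq on the GRCm38.p6 build, 5′ to 3′ on the gene's own strand, for Egfr at chr11:16751953-16752202 (plus strand) and for Erbb4 at chr1:69108060-69108309 (minus strand). Capitals mark the only match, in Egfr, to any of 3 motifs searched on both strands, which were the GC box GGGCGG, the TATA box TATAAA and the CCAAT box CCAAT.
Egfr: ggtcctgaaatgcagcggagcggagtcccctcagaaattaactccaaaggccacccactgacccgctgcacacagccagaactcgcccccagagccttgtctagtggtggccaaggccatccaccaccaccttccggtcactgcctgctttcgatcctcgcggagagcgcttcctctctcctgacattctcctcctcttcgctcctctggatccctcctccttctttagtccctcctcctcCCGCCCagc
Erbb4: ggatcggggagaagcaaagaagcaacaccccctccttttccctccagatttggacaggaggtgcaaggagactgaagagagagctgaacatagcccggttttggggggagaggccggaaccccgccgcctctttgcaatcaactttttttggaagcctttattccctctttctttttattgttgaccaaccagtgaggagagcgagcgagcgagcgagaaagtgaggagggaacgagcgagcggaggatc

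The window of Egfr held 1 GC box (as the reverse complement CCGCCC), which 32.7% of 32851 RefSeq promoters of the same length held, and that of Erbb4 held none. Neither window held a TATA box (12.4% of promoters) or a CCAAT box (33.8%). The GC content was 60.8% with 11 CpG in Egfr and 54.0% with 12 CpG in Erbb4, against medians of 52.4% and 6 over all promoters. These are descriptions of the letters in these windows and say nothing of factors bound there. Of the 7 members, 4 matched a promoter entry (Egfr, Erbb4, Nrg3 and Erbb2), and Nrg1, Nrg2 and Erbb3 did not.

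Erbb4 in inhibitory neurons stood at 145, 283, 262, 516 and 535 CPM in replicates 1 to 5 of rank 1, and at 182, 133, 332, 456 and 439 CPM in those of rank 4. All 4 libraries of version 4.0.0 were above the other 6, and the ranks overlapped. Excitatory neurons held 3.06 ± 2.70 CPM (n = 10), so that inhibitory minus excitatory neurons differed by 6.49 on the log2 scale (SE 0.20, adjusted p = 1.7e-21 by edgeR). Inhibitory neurons were higher in 10 of 10 libraries.

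Pvalb interneurons had at least 20 cells in 5 libraries. Erbb4 there was at 204 CPM in rank 1 replicate 1, 1060 in rank 1 replicate 4, 1145 in rank 1 replicate 5, 848 in rank 4 replicate 4 and 985 CPM in rank 4 replicate 5. The only library of version 3.1.0 among them was the lowest. Vip interneurons were at 211, 643 and 564 CPM in replicates 1, 4 and 5 of rank 1 and at 336, 462 and 448 CPM in replicates 1, 4 and 5 of rank 4. Pvalb exceeded Vip in 4 of 5 shared libraries, all of version 4.0.0, while in rank 1 replicate 1 the values were 204 and 211 CPM.

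Lamp5 interneurons, which include neurogliaform cells, held 319 ± 89.2 CPM of Erbb4 (217 to 469, n = 6), and Sst interneurons held 99.2 ± 55.0 CPM (21.3 to 150, n = 4). The only Sncg group with enough cells, in 1 library, was at 174 CPM. By edgeR, with tests added after the levels were seen, Pvalb minus Vip differed by 0.84 (SE 0.16, adjusted p = 6.3e-05, n = 5 libraries), Lamp5 minus Pvalb by −1.29 (SE 0.17, adjusted p = 1.7e-13, n = 4) and Pvalb minus Sst by 2.95 (SE 0.15, adjusted p = 9.9e-47, n = 3). Sst was also below Lamp5 (log2 difference of Lamp5 minus Sst 1.73) and below Vip (Sst minus Vip −2.12). Lamp5 and Vip did not pass (−0.32, SE 0.16, adjusted p = 0.175). By these tests the order was Pvalb, then Vip and Lamp5, then Sst. That Pvalb led rests on version 4.0.0, since in the 1 library of version 3.1.0 with Lamp5, Vip and Pvalb the values were 217, 211 and 204 CPM.

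**Figure D2:**
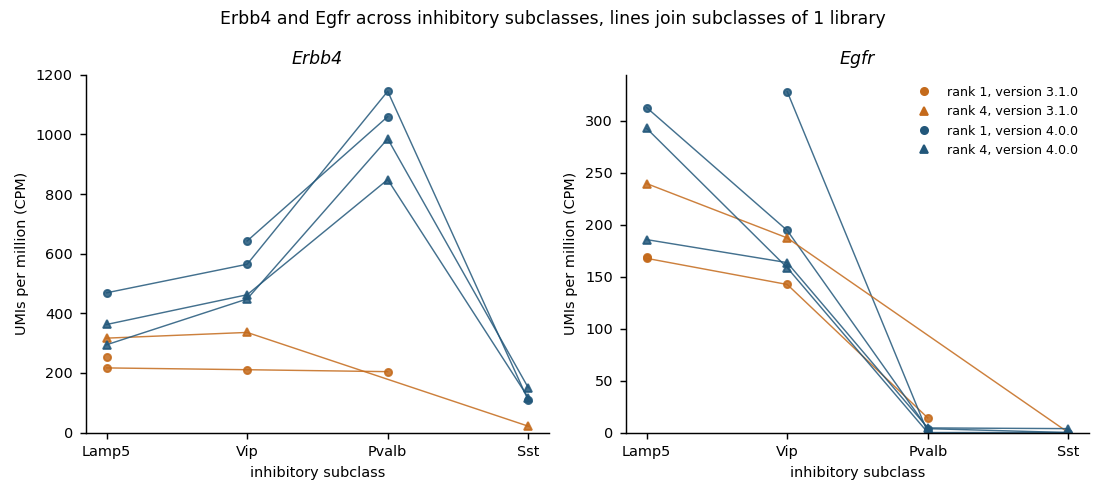
Erbb4 (left) and Egfr (right) in CPM, on axes from 0, in 4 interneuron subclasses: points are libraries, marked by rank and header version, and lines join the subclasses of 1 library. Erbb4 reaches 848 to 1145 CPM in Pvalb cells of the 4 libraries of version 4.0.0, whereas Egfr is at 142 to 328 CPM in Lamp5 and Vip cells and at 0 to 14.1 CPM in Pvalb cells.

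Erbb4 was also counted by cell. An Erbb4 UMI was found in 87.3% of 403 Pvalb cells, 62.2% of 286 Lamp5 cells, 51.5% of 400 Vip cells and 26.6% of 263 Sst cells, with median depths of 3390, 3356.5, 2032 and 3797 UMIs. After thinning to 1000 UMIs per cell the shares were 60.4%, 27.0%, 28.1% and 9.51%. In microglia, which should lack the gene, 1.38% of 3615 cells had an Erbb4 UMI at a median depth of 1275 UMIs, and 1.03% after thinning. Pvalb cells were 0.776% of a library's kept cells on average and held 30.9 ± 14.9% of its Erbb4 UMIs (n = 10).

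The oligodendrocyte lineage had Erbb4 too. OPCs were at 37.1, 30.5, 60.5, 98 and 86.2 CPM in rank 1 and at 41.2, 36.6, 37.7, 61.8 and 83.3 CPM in rank 4, with the 4 libraries of version 4.0.0 highest. Committed oligodendrocyte precursors (COPs), the short stage between OPCs and oligodendrocytes, held 79.0 ± 18.3 CPM (n = 7), and exceeded OPCs in 7 of 7 libraries (exact sign-flip permutation test, two-sided, p = 0.0156, adjusted p over all neighbouring types above 0.05). Oligodendrocytes were at 13.4, 67.5, 0, 79.5 and 70.4 CPM in rank 1 and at 52.2, 0, 14.5, 63.6 and 58.2 CPM in rank 4, a wide spread in which 2 libraries had no UMI. OPCs minus oligodendrocytes differed by 0.13 (SE 0.20, adjusted p = 0.633 by edgeR). The summed level of the 6 inhibitory neuron markers was 114 CPM in OPCs and 67.7 CPM in microglia, where Erbb4 was at 9.63 ± 7.84 CPM (n = 10). What free RNA adds to the level in OPCs was not tested.

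Scaling mattered for this comparison. The median log2 difference of all genes was 0.05 with TMM factors, 0.24 with RLE factors and 0.42 with total UMIs only, and the calls higher and lower in OPCs were 2223 and 1956, 3116 and 1424, and 4200 and 1095. Erbb4 in oligodendrocyte precursors against oligodendrocytes moved from 0.13 to 0.33 with RLE factors (adjusted p = 0.185) and to 0.49 with total UMIs only (adjusted p = 0.044 by edgeR), about as far as the median of all genes.

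Erbb3, which pairs with ErbB2 and is needed for Schwann cells in the nerve, was at 60.2, 45.0, 12.4, 150 and 122 CPM in oligodendrocytes of rank 1, and at 98.5, 80.5, 41.1, 106 and 116 CPM in those of rank 4. The 4 libraries of version 4.0.0 were the highest and the ranks overlapped. In OPCs it was at 45.3, 45.7, 35.3, 62.4 and 53.0 CPM in rank 1 and at 55.7, 29.3, 43.7, 64.9 and 52.2 CPM in rank 4, a narrower range. COPs held 47.4 ± 53.9 CPM (0 to 155, n = 7), and no other type with at least 5 libraries had more than 3.1 CPM. OPCs minus oligodendrocytes differed by −1.17 (SE 0.16, adjusted p = 1.7e-07 by edgeR), which became −0.97 with RLE factors and −0.79 with total UMIs only. Erbb3 was 1 of the 2 members tested there that passed, where 48.0% of all genes tested passed. The other 5 members were below the filter on low counts.

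The paired order by library was less firm. Oligodendrocytes exceeded OPCs for Erbb3 in 7 of 10 libraries, all 4 of version 4.0.0 and 3 of the 6 of version 3.1.0 (exact sign-flip permutation test, two-sided, p = 0.0605). OPCs held 51.1 ± 22.3% and oligodendrocytes 33.5 ± 17.1% of a library's Erbb3 UMIs (n = 10), with 7.56% and 4.08% of its cells. An Erbb3 UMI was found in 12.8% of 2303 oligodendrocytes, 8.91% of 3242 OPCs and 0.277% of 3615 microglia, and after thinning to 1000 UMIs in 8.72%, 4.61% and 0.119%. Erbb3 and Erbb4 UMIs were found together in 30 of 3242 OPCs (0.925%), 11 of 294 COPs (3.74%) and 32 of 2303 oligodendrocytes (1.39%), and in 0 of 3615 microglia. After thinning to 1000 UMIs the exact expected shares were 0.244%, 0.508% and 0.552% in OPCs, COPs and oligodendrocytes.

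Egfr, the receptor of EGF, TGF-alpha and HB-EGF, had a high level in 2 interneuron subclasses and in astrocytes. In Lamp5 interneurons it was at 167, 168 and 312 CPM in replicates 1, 2 and 5 of rank 1 and at 239, 292 and 186 CPM in replicates 1, 4 and 5 of rank 4. In Vip interneurons it was at 142, 328 and 194 CPM in replicates 1, 4 and 5 of rank 1 and at 187, 158 and 163 CPM in replicates 1, 4 and 5 of rank 4. These ranges overlapped between ranks and between header versions. Lamp5 and Vip did not pass against each other (0.41, SE 0.19, adjusted p = 0.152 by edgeR), although Lamp5 was higher in 5 of 5 shared libraries.

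Pvalb cells held 4.45 ± 5.76 CPM of Egfr (n = 5) and Sst cells 0.940 ± 1.88 CPM (1 UMI, n = 4). Lamp5 minus Pvalb differed by 5.57 (SE 0.36, adjusted p = 2.0e-50 by edgeR) and Pvalb minus Vip by −5.45 (SE 0.40, adjusted p = 1.9e-14). Sst was also below Lamp5 (adjusted p = 8.5e-25) and Vip (adjusted p = 6.5e-30 by edgeR), with no fold given for a single UMI. An Egfr UMI was found in 48.3% of Lamp5 cells, 27.0% of Vip cells, 1.49% of Pvalb cells and 0.387% of microglia. After thinning to 1000 UMIs, where Lamp5 and Vip cells no longer differ in depth, the shares were 19.8%, 13.9%, 0.752% and 0.0796%.

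Some Lamp5 and Vip cells carried both receptors. An Egfr and an Erbb4 UMI were found in 106 of 286 Lamp5 cells (37.1%), 61 of 400 Vip cells (15.2%) and 4 of 403 Pvalb cells (0.993%), at median depths of 3356.5, 2032 and 3390 UMIs. After thinning to 1000 UMIs, which was added after these shares were seen, the exact expected shares were 6.29%, 4.69% and 0.117%, so Lamp5 and Vip cells lay closer together than at full depth. In microglia 0 of 3615 cells had both, which allows a share of up to 0.083% with both detected at their lower median depth of 1275 UMIs. Erbb2, the partner receptor, had no UMI in the 286 Lamp5, 403 Pvalb and 263 Sst cells, which allows levels of up to 2.78, 1.87 and 2.49 CPM at 3 counts, and 1 UMI in 400 Vip cells.

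Egfr in inhibitory neurons as a whole was at 56.1, 69.9, 25.1, 61.2 and 57.3 CPM in rank 1 and at 85.8, 58.1, 34.9, 62.5 and 48.0 CPM in rank 4. Here the libraries of version 4.0.0 lay within the range of the others. Excitatory neurons held 0.684 ± 0.716 CPM (n = 10), and inhibitory minus excitatory neurons differed by 6.18 (SE 0.23, adjusted p = 1.0e-19 by edgeR).

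In astrocytes Egfr was at 50.6, 39.8, 61.5, 157 and 103 CPM in rank 1 and at 59.5, 71.1, 48.8, 107 and 68.8 CPM in rank 4. Every astrocyte value was above the highest pericyte value of 24.1 CPM, and astrocytes exceeded pericytes, the next type in the order, in 10 of 10 libraries (exact sign-flip permutation test, two-sided, p = 0.00195, the smallest that 10 libraries allow). Astrocytes minus excitatory neurons differed by 6.88 (SE 0.32, adjusted p = 3.5e-11 by edgeR). Astrocytes were 21.2% of a library's cells and held 69.6 ± 10.2% of its Egfr UMIs (n = 10). COPs had no Egfr UMI in 294 cells, which allows up to 4.08 CPM, and OPCs and oligodendrocytes held 2.28 ± 3.01 and 2.06 ± 5.43 CPM (n = 10 each), near the 1.94 ± 2.08 CPM of microglia.

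Erbb3 was below the filter on low counts in the comparison with excitatory neurons, and 5 of the 6 members tested passed in astrocytes, where 78.0% of all genes tested passed. Erbb2 was higher, by 4.55 (SE 0.38, adjusted p = 2.7e-08 by edgeR), with astrocytes at 5.82, 1.59, 9.97, 10.1 and 5.58 CPM in rank 1 and at 8.05, 4.96, 4.68, 8.44 and 5.49 CPM in rank 4. Those values rest on 105 UMIs in all astrocytes, and the ranks overlapped. Endothelial cells at 5.65 ± 3.86 CPM and pericytes at 5.41 ± 5.81 CPM (n = 10 each) were close to astrocytes, and L5 IT neurons had no Erbb2 UMI, which allows up to 0.245 CPM.

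Nrg1 and Nrg3 were lower in astrocytes than in excitatory neurons, by −1.42 (SE 0.19, adjusted p = 4.7e-06) and −2.53 (SE 0.23, adjusted p = 6.5e-08 by edgeR). Erbb4 was higher by 0.81 (SE 0.27, adjusted p = 0.0142), with both classes under 5 CPM and below the 9.63 CPM of microglia, which should lack the gene, so the levels are not set apart from background. Nrg2 did not pass (−0.25, SE 0.17, adjusted p = 0.173 by edgeR), but Nrg2 in astrocytes against excitatory neurons passed with total UMIs only (−0.42, adjusted p = 0.0211) and without rank 4 replicate 1 (−0.42, adjusted p = 0.024). The median over all genes was 0.03 with TMM factors, −0.07 with RLE factors and −0.18 with total UMIs only, and the calls higher and lower in astrocytes were 5249 and 5000 with TMM, 4787 and 5481 with RLE factors, and 4280 and 5985 with total UMIs only.

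Across the whole order of 17 types, each member's neighbouring types were compared within libraries. By the exact sign-flip permutation test 0 of 112 neighbour pairs passed adjustment (smallest adjusted p = 0.109), and 8 had an unadjusted p under 0.05. Exact tests with 10 shared libraries could not go below p = 0.00195, those with 5 shared libraries below 0.0625 and those with 6 below 0.0313, so neighbours that did not pass are not shown to be alike.

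Social rank showed no called difference in any member. In classes 0 of 18 tests of a member passed edgeR's quasi-likelihood test with the software version as covariate, and in subclasses 0 of 17, with 0 and 0 at an unadjusted p under 0.05. DESeq2 also gave 0 and 0, and 0 and 0 unadjusted. Over all genes 0.0% of gene and class tests passed, and 0.0345% of gene and subclass tests, with 2.27% and 4.03% at an unadjusted p under 0.05, so the members' count of 0 is near the background. With DESeq2 0.00287% and 0.0% of all tests passed, and 1.78% and 2.31% unadjusted. With the replicate number as a block 0 of 21 and 0 of 16 member tests passed, with 3 and 1 unadjusted, where 0.301% and 0.497% of all tests passed and 9.51% and 8.81% did so unadjusted.

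The sizes were small for the members with most molecules. The log2 difference of rank 1 minus rank 4 was 0.13 (SE 0.23) for Erbb4 in inhibitory neurons, −0.09 (SE 0.26) for Egfr in inhibitory neurons and 0.11 (SE 0.23) for Egfr in astrocytes. For Erbb3 it was −0.05 (SE 0.36) in oligodendrocytes and −0.06 (SE 0.23) in OPCs, and for Erbb4 in OPCs 0.15 (SE 0.22). For the ligands in excitatory neurons it was 0.27 (SE 0.19) for Nrg1, 0.10 (SE 0.24) for Nrg2 and −0.07 (SE 0.14) for Nrg3. The standard errors are as large as or larger than most of these differences, and a p that misses the threshold does not show that the ranks are alike.

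In the model without the replicate block, the smallest unadjusted p was that of Nrg1 in L6 CT neurons, which project to the thalamus, with a log2 difference of 0.44 (SE 0.23, unadjusted p = 0.0714 and adjusted p = 1.000 by edgeR's test across all genes). The libraries were at 34.3, 18.4, 34.7, 48.2 and 27.9 CPM in rank 1 and at 13.6, 19.4, 26.6, 30.7 and 29.2 CPM in rank 4, which overlapped. With the block, the 4 member tests at an unadjusted p under 0.05 by edgeR were Nrg3 in astrocytes (−0.92, SE 0.35, unadjusted p = 0.0118 and adjusted p = 0.208), Nrg1 in OPCs, given above, Erbb4 in excitatory neurons (−0.85, SE 0.36, unadjusted p = 0.0296 and adjusted p = 0.344) and Nrg1 in L6 CT neurons (0.45, SE 0.21, unadjusted p = 0.0348 and adjusted p = 0.539). Nrg3 in astrocytes was at 0 to 12.4 CPM in rank 1 and 0 to 16.2 CPM in rank 4, and Erbb4 in excitatory neurons at 0.853 to 3.95 and 0 to 8.99 CPM. Microglia held 11.2 CPM of Nrg3 and 9.63 CPM of Erbb4 on average. In Lamp5 and Vip interneurons, with 3 libraries per rank, Erbb4 differed by 0.06 (SE 0.37) and 0.07 (SE 0.25), and Egfr by −0.03 (SE 0.38) and 0.26 (SE 0.29).

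**Figure D3:**
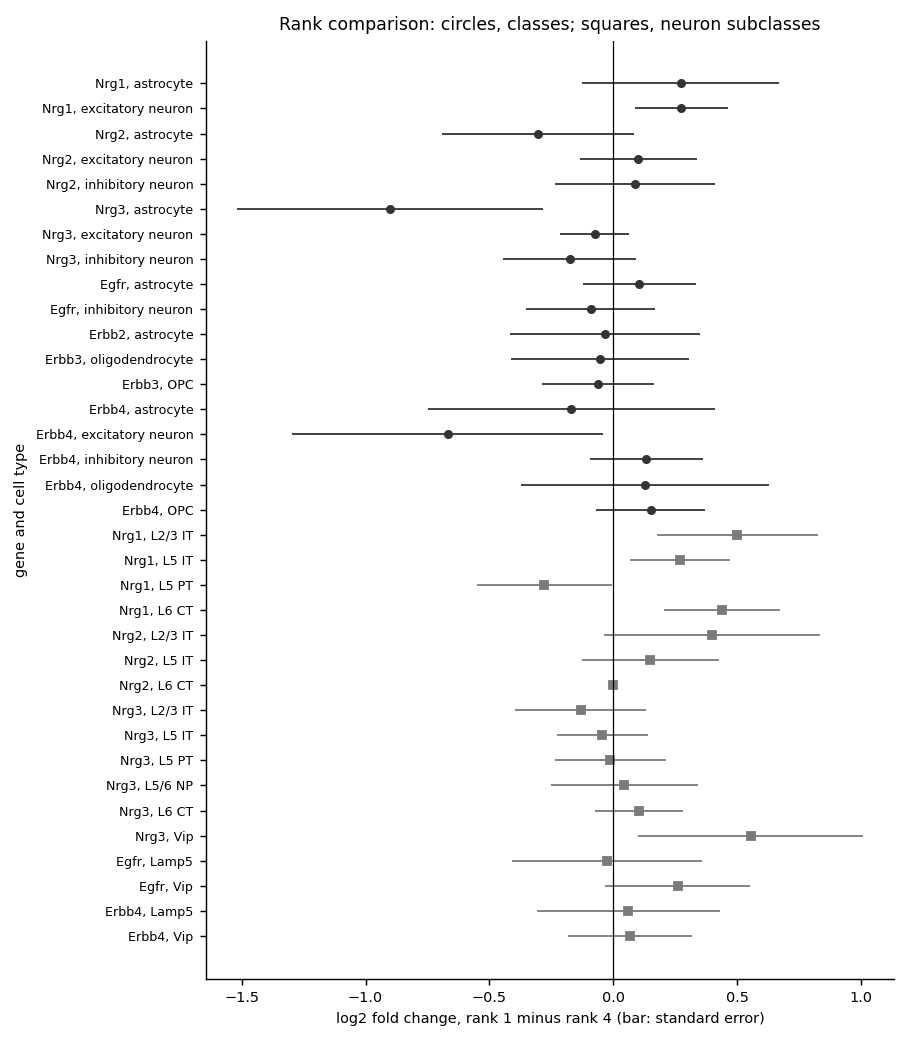
Log2 difference of rank 1 minus rank 4 for each member and cell type tested by edgeR: circles are classes, squares are neuron subclasses, bars are 1 SE to each side where one could be computed, and the line marks 0. No member passed, and the class estimates run from −0.90 to 0.27.

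The header version of the libraries, by contrast, went with the level of most members. With rank in the model, a comparison added after the levels were seen, 12 of 18 member tests in classes passed by edgeR, all 12 higher in the libraries of version 4.0.0, where 18.8% of all tests were called higher, 19.6% lower and 38.5% in either direction. In subclasses 10 of 14 passed, all higher, against 17.0% called higher, 18.1% lower and 35.2% in either direction over all tests. Replicates 4 and 5 make up the 4.0.0 group in both ranks, so rank and version are balanced. The matrices also differ along this split in the genes they list, 31053 in version 3.1.0 and 32285 in version 4.0.0. Which feature of these libraries goes with the version was not tested, and the version cannot be told apart from this gene list or from anything else that replicates 4 and 5 share.

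Nrg3 and Nrg2 differed by more than 1 log2 unit in excitatory neurons. In these cells Nrg3 was at 23.6 ± 4.26 CPM in the 6 libraries of version 3.1.0 and at 68.1 ± 4.72 CPM in the 4 of version 4.0.0, a log2 difference of 1.48 (SE 0.14, adjusted p = 1.3e-05 by edgeR). Nrg2 differed by 1.76 (SE 0.23, adjusted p = 0.00012) and Nrg1 by 0.78 (SE 0.19, adjusted p = 0.0046). Microglia moved with it, with Nrg3 at 3.39 ± 4.32 CPM in the 6 libraries and 23.0 ± 10.1 CPM in the 4, and the part of free RNA in these differences was not tested.

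Among the receptors, Erbb4 differed by 1.04 in inhibitory neurons (SE 0.23, adjusted p = 0.0019 by edgeR) and by 1.00 in OPCs (SE 0.22, adjusted p = 0.0021). In oligodendrocytes Erbb4 differed by 1.62 (SE 0.51, adjusted p = 0.0256), with Erbb4 between software versions in oligodendrocyte no longer passing without replicate 3 or 5 of rank 1 or replicate 2, 3, 4 or 5 of rank 4 (adjusted p from 0.0501 to 0.103 by edgeR). Egfr differed by 0.78 in astrocytes (SE 0.23, adjusted p = 0.0152), with Egfr between software versions in astrocyte no longer passing when rank 1 replicate 4 (0.55, adjusted p = 0.0607) or its counterpart in rank 4 (0.76, adjusted p = 0.0532) was left out, but in inhibitory neurons by −0.14 (SE 0.26, adjusted p = 0.700 by edgeR). Erbb3 differed by 1.04 in oligodendrocytes (SE 0.35, adjusted p = 0.033), with Erbb3 between software versions in oligodendrocyte no longer passing without any one of 8 libraries, all but replicate 1 of each rank (adjusted p from 0.053 to 0.0945), and by 0.30 in OPCs (SE 0.23, adjusted p = 0.479). Erbb2 in astrocytes differed by 0.05 (SE 0.39, adjusted p = 0.935). Whether a member's contrast between cell classes differed between ranks or versions was tested in 30 comparisons by an exact permutation test, and 0 passed adjustment. The smallest p was for Erbb4 in astrocytes minus excitatory neurons (0.39 in the 4 libraries and −0.03 in the 6, exact permutation p = 0.00476, adjusted p = 0.143).

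**Figure D4:**
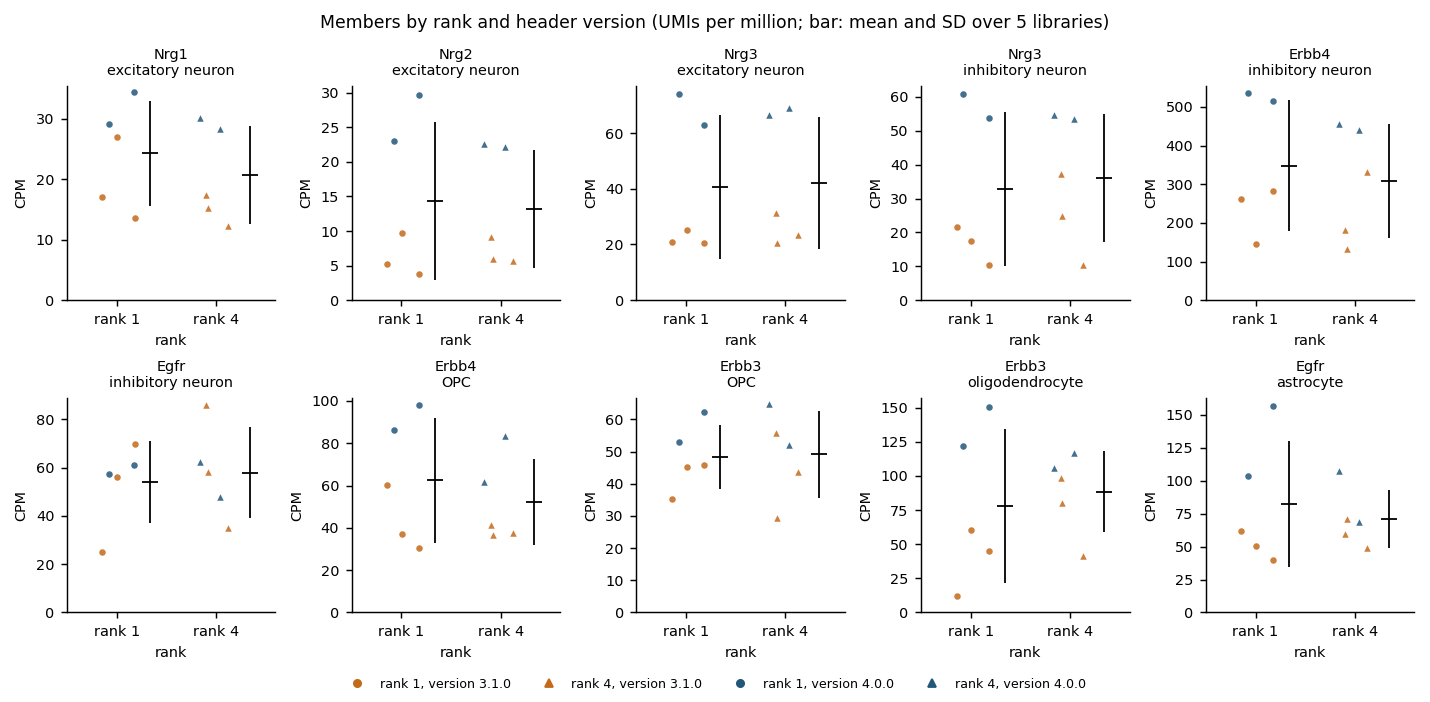
Members in their main classes in CPM (vertical axes from 0), by rank: points are libraries, coloured by header version, and the bar is the mean with its SD over the 5 libraries of a rank. The libraries of version 4.0.0 lie above those of 3.1.0 for Nrg3 in excitatory neurons (62.9 to 74.1 against 20.4 to 31.4 CPM) in both ranks.

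The other genes of the pathway were taken from a list of 43 genes. Of the 36 that could be tested between inhibitory and excitatory neurons, 12 were higher and 10 lower in inhibitory neurons and 14 did not pass, where 46.9% of all genes tested passed, with a median log2 difference of 0.12 beside −0.03 over all genes. Of 31 tested in OPCs against oligodendrocytes, 8 were higher, 10 lower and 13 did not pass, where 48.0% of all genes passed. Of 37 tested in astrocytes against excitatory neurons, 13 were higher, 17 lower and 7 did not pass, where 78.0% of all genes passed. Medians over all genes for the last pair of comparisons were 0.05 and 0.03, beside −0.18 and 0.07 for the list.

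Among the other ligands (11 listed), Cspg5, also called neuroglycan C, a membrane proteoglycan with an EGF-like domain, was highest in OPCs at 2757 ± 532 CPM (n = 10), 4.55 log2 units above oligodendrocytes (SE 0.21, adjusted p = 7.7e-20 by edgeR). Tmeff2, a membrane protein with an EGF-like domain, was highest in oligodendrocytes at 800 ± 576 CPM (n = 10), and OPCs minus oligodendrocytes was −3.32 (SE 0.18, adjusted p = 1.4e-17). Its relative Tmeff1 was highest in Lamp5 interneurons at 277 ± 82.3 CPM (n = 6). The EGF receptor ligand Hbegf, though not among the 3 with the highest level, was named after its values were seen. The level of Hbegf was highest in endothelial cells, at 218 ± 80.7 CPM (n = 10), and next in microglia, at 138 ± 111 CPM (n = 10). Egfr was at only 1.69 and 1.94 CPM in these types. Against excitatory neurons, Hbegf was higher in astrocytes (4.43, SE 0.12) and in inhibitory neurons (2.41, SE 0.18), with adjusted p = 8.5e-13 and 1.6e-12 by edgeR. Egfr was also higher in those 2 classes, so Hbegf and Egfr stood together in some types and not in others.

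Of the proteases and their regulators, Bace1, which cuts neuregulin 1, was highest in COPs at 142 ± 89.4 CPM (n = 7) and lower in OPCs than in oligodendrocytes (−0.80, SE 0.15, adjusted p = 2.7e-05 by edgeR). Adam10 was highest in endothelial cells at 138 ± 15.2 CPM (n = 10) and lower in inhibitory than in excitatory neurons (−0.70, SE 0.09, adjusted p = 1.1e-07). Adam17, the sheddase of TGF-alpha and HB-EGF, was highest in microglia at 81.2 ± 45.3 CPM (n = 10) and higher in astrocytes than in excitatory neurons (1.49, SE 0.15, adjusted p = 1.5e-07 by edgeR).

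Among 16 adaptors and kinases, Fyn, a kinase known from myelination, was highest in COPs at 1968 ± 501 CPM (n = 7) and higher in OPCs than in oligodendrocytes (1.65, SE 0.15, adjusted p = 1.3e-11 by edgeR). The MAP kinase Mapk3 was highest in L2/3 IT neurons at 303 ± 141 CPM (n = 10) and lower in inhibitory than in excitatory neurons (−0.73, SE 0.10, adjusted p = 3.4e-07 by edgeR). Of the scaffolds, Dlg4, the postsynaptic protein PSD-95 that binds ErbB4, was highest in L5 PT neurons at 334 ± 103 CPM (n = 10) and lower in inhibitory neurons (−0.74, SE 0.07, adjusted p = 2.3e-10). Erbin, which binds ErbB2, was highest in oligodendrocytes at 223 ± 113 CPM (n = 10) and higher in inhibitory than in excitatory neurons (2.41, SE 0.19, adjusted p = 6.7e-12 by edgeR). Dlg1 was highest in L5/6 NP neurons at 104 ± 37.5 CPM (n = 8).

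Of the inhibitors and turnover genes, Errfi1, which blocks the EGF receptor kinase, was highest in smooth muscle cells at 770 ± 646 CPM (n = 8), the ubiquitin ligase Nedd4 in Pvalb interneurons at 439 ± 159 CPM (n = 5), and Cbl, which tags active receptors for removal, in microglia at 101 ± 55.1 CPM (n = 10). Errfi1 was higher in inhibitory than in excitatory neurons (0.57, SE 0.13, adjusted p = 0.00059) and lower in astrocytes than in excitatory neurons (−0.65, SE 0.12, adjusted p = 0.00012 by edgeR).

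Between ranks, 0 of 386 tests of 36 pathway genes passed by edgeR. At an unadjusted p under 0.05 there were 2 of 233 class tests and 2 of 153 subclass tests, a smaller share than the 2.27% and 4.03% of all tests, so these are no more than the background gives. By edgeR's test across all genes, those 4 were the transcription factor Stat5b in L6 CT neurons (0.83, SE 0.31, unadjusted p = 0.0111), in inhibitory neurons (0.64, SE 0.25, unadjusted p = 0.0179) and in excitatory neurons (0.44, SE 0.16, unadjusted p = 0.0193), and Cspg5 in Vip interneurons (0.59, SE 0.26, unadjusted p = 0.0237). All 4 estimates were above 0 and none passed adjustment (adjusted p from 0.525 to 1.000 by edgeR). L6 CT neurons are part of the excitatory class, so the Stat5b values share cells.

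Type means rest on 5 to 10 of the same libraries each, with differing shares of the header versions. Over the 17 types, the genes whose mean levels ran most like a member's were picked by Pearson's r of log2(CPM + 10) among 11751 genes, as a description with no test. For Erbb4 they were Zfp536 (r = 0.94), the GABA-synthesis gene Gad1 (0.93) and Btbd11 (0.92). For Egfr they were Sox1 (0.94), its antisense gene Egfros (0.88) and Sp8 (0.88). For Erbb3 they were Gjc3, Sox10 and Gal3st1 (0.97 each), of which Sox10 is the lineage's transcription factor and Gal3st1 makes the myelin lipid sulfatide.

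For the ligands the nearest genes were 4933427D14Rik, Btbd10 and Ext1 for Nrg1 (0.90 each), Vezt (0.97), Wnk3 (0.95) and Alg2 (0.95) for Nrg2, and Nbea (0.97), Myt1l (0.96) and Ahi1 (0.96) for Nrg3. Dennd4c (0.88), Fdx1 (0.87) and Trp53inp1 (0.87) came nearest to Erbb2, which itself did not reach 20 CPM in any type. Between members the highest r was 0.77, for Nrg2 and Nrg3, and Egfr with Erbb4 gave 0.53.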

How the data were processed

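Single-cell RNA-seq was read from 10 matrices of raw counts (UMIs per gene and cell barcode), deposited by the authors as whole numbers without normalization. The submitters' processing notes name Cell Ranger 4.0.0 and the mm10 build, whereas the file headers name version 3.1.0 in 6 matrices and 4.0.0 in 4. Whether counting used strand or introns is not given in the sources used here. The members and gene lists were chosen with earlier results of these data known.

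Barcodes with at least 500 genes and at most 15% mitochondrial UMIs were kept, and 3915 barcodes called as doublets (expected share 6%) were removed. In rank 1 replicate 1 the caller found too few doublets, and the median threshold of the other libraries was used. Cells were clustered with scanpy 1.11.5 and leidenalg 0.10.2 (2000 variable genes without the members and pathway genes, 30 components, 15 neighbours, resolution 1) and named from marker lists. The clusters left unnamed include 1388 cells led by Oxt, Avp and Bc1 and 85 immune cells. In all 13 named classes the class's own list, which also gave the name, was highest in that class. Replicates came from pooled mice, and intervals and limits cover counting error only (95% confidence, 3 counts for a count of 0).

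UMIs were summed per library and type and tested over all genes with edgeR 4.0.16 in R 4.3.3 (TMM, filterByExpr, quasi-likelihood test, Benjamini-Hochberg adjustment, threshold 0.05). Rank was tested with the header version as covariate in types with at least 20 cells in 3 libraries per rank, and types were compared with library as block. DESeq2 1.42.0 was an alternative. Subclass pairs and software versions were compared, and the order of types repeated with at least 10 cells per library, only after the levels had been seen. Neighbouring types were compared by exact sign-flip tests of log2(CPM + 10). Pathway genes were named by the 3 highest levels per role and the smallest rank p-values, and similar genes as the 3 with the highest r among genes with at least 20 CPM in a type. A pathway gene with a high level is not reported here.

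Libraries with the same replicate number in the labels deviated together: the correlations of their deviations from the rank means were 0.50 to 0.87 in 4 classes, and so the numbers were taken as pairs. Replicates 2 to 5 correlated with another number at up to 0.39 to 0.86, so only replicate 1 (at most 0.32 with another number) stood apart by its number. Within a software version these correlations were 0.0054 to 0.82. On simulated counts for rank in excitatory neurons (12932 genes, 100 changed per size), 100% of changes of 2 log2 units and 91% of changes of 1 log2 unit were recovered, with 8 false calls. The changed genes were drawn from those with at least 20 CPM in these cells. Of the members only Nrg1 and Nrg3 reached that level there (22.5 and 41.4 CPM). Rank was not simulated in other types, so these shares do not apply to the other rank tests of members. Alternatives were other size factors, filters, cell minimums, clusterings, pseudocounts of 1 and 50 CPM, and leaving out each library.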

Additional observations from a re-analysis of the deposited data

Results flagged for a closer look

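Nrg1 in L5 PT neurons was at 15.4 CPM in rank 4 replicate 3, below the other 4 libraries of rank 4, which lay between 39.8 and 47.1 CPM. These levels rest on few molecules: 3 UMIs in 54 cells in replicate 3, and 8, 4, 35 and 37 UMIs in replicates 1, 2, 4 and 5 of rank 4. The gap from replicate 3 to the nearest library was 0.768 of the range of the group, above the limit of 0.71 for 5 libraries. This was 1 of 61 groups tested for a library that stands apart, of which chance flags about 5%. No member's contrast between cell classes differed between ranks or header versions in 30 exact permutation tests after adjustment.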

How the results depend on the processing

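No member passed between ranks in classes or subclasses under any of the alternatives run. With the replicate number as a block, which takes the replicate pairs into account, 0 of 21 class tests and 0 of 16 subclass tests of members passed (3 and 1 at an unadjusted p under 0.05), where 0.301% and 0.497% of all tests passed, against 0.0% and 0.0345% without it. The block was run for the rank tests alone and changed no member's call. The log2 difference of Nrg1 in L6 CT neurons ranged from 0.25 to 0.81 when 1 library was left out, the highest without rank 1 replicate 5 (adjusted p = 0.725 by edgeR). Against oligodendrocytes, OPCs had 2 members passing with total UMIs only (Erbb3 and Erbb4), 3 with no filter on low counts (Erbb3, Nrg1 and Nrg2), and 1 to 2 when 1 library was left out, the 2 being without rank 1 replicate 2, rank 1 replicate 3 or rank 4 replicate 2, where Nrg1 passed the filter. With at least 50 cells per library, the highest type led the next in 1 member, Egfr in astrocytes, since the interneuron subclasses then dropped out. Of 182 alternative values of the class contrasts, 3 gained a call and none lost one. Of 647 values of the subclass pairs 30 lost a call and 1 gained one, and of 448 values of the version comparison 19 lost a call and 12 gained one. No called value changed sign in these alternatives. Depth limits Erbb2 most, with 193 UMIs in all kept cells, and the interneuron subclasses: Lamp5, Pvalb, Sst and Vip had 4 to 6 libraries each, Sncg had 1, and Pvalb and Sst shared 3.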

Other observations

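Among interneurons that matched no subclass list, 1 cluster of 170 cells led by Th, Nr4a2 and Pard3b held 637 ± 134 CPM of Erbb4 (482 to 720, n = 3 libraries) and no Egfr UMI. Another cluster of 175 cells, led by Igfbp5, Plpp4 and Gfra2, held 30.7 ± 20.6 CPM of Erbb4 (n = 3) and no Egfr UMI in those libraries. High and low Erbb4 were thus both found outside the named subclasses. These clusters were chosen after their values were seen, and no test was made.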
